A study of Mus musculus with 4 samples.

Results

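Steroid hormone receptors and the coregulators that they recruit were followed in RNA sequencing of medullary thymic epithelial cells (mTECs) from female and male mice. The 9 genes were taken by name from the table of read counts, which holds 23366 genes. They are the glucocorticoid receptor Nr3c1, the mineralocorticoid receptor Nr3c2, the estrogen receptors Esr1 and Esr2, the progesterone receptor Pgr, the coactivators Ncoa1, Ncoa2 and Ncoa3, and the corepressor Ncor1. The rule takes them by name and uses no threshold on their values. The cells came from wild-type C57BL/6 mice aged 6 to 8 weeks, with no treatment given in the labels, and each sex had 2 pools of 10 mice. The mTECs were sorted as PI-, CD45-, MHCII+ and Ly51low cells, so the sort marks a class of live, non-hematopoietic cells and not a single mTEC subset. The comparison asked which genes differ between males and females in these cells. Of the 9 genes, 6 passed the filter on low counts, beside 46.5% of all genes in the table. Esr1, Esr2 and Pgr did not pass it.

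Steroid receptors are transcription factors that are held by heat shock proteins until a steroid binds them, after which they bind DNA at hormone response elements or act through other factors. On DNA they recruit coactivators, which bring histone acetyltransferases and methyltransferases, while corepressors such as NCOR1 bring histone deacetylase activity to many nuclear receptors. Glucocorticoids act on nearly every cell of the body and are also made in the thymus, and sex steroids shape the size and output of the thymus through receptors in its stromal cells.

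The reads assigned to genes numbered 3508921 and 1976272 in female pools 1 and 2, and 7103627 and 3344471 in male pools 1 and 2. A further 66.9% to 70.2% of each pool's reads were not assigned to a gene. In CPM, the counts of a pool scaled to a common library size with TMM factors, 3 counts in a pool were worth 0.812, 1.48, 0.357 and 1.15 in that order, so the first male pool could show the lowest levels. Thymic epithelial markers (9 of 10 tested, none at 0) summed to 385, 724, 448 and 689 CPM. B cell markers summed to 4597, 3014, 3794 and 2527 CPM, above the epithelial sum in every pool although the sort took CD45- cells, and dendritic cell and macrophage markers to 1599 to 4428 CPM. Thymocyte markers summed to 219 to 851 CPM, fibroblast markers to 18.4 to 110 CPM and endothelial markers to 19.5 to 34.7 CPM, with Emcn at 0 in every pool. The libraries are called mTECs here as in their labels. In such pooled cells, fewer cells of a type and less RNA per cell cannot be told apart, and which cells carried the receptor transcripts was not tested.

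Nr3c1, the receptor for corticosterone, was the receptor with the highest level. It lies on chromosome 18 at 39570199 to 39650955 on the minus strand (mouse build NCBIM37, the same assembly as mm9). Its counts were 167 (female pool 1), 77 (female pool 2), 425 (male pool 1) and 86 (male pool 2). Per length of its exons these were 6.08, 5.11, 6.81 and 4.44 RPKM, the normalized CPM divided by the exon length in kilobases. The first male pool was highest and the second male pool lowest, so both female pools lay between the male ones. The mean over the 4 pools was 5.61 ± 1.05 RPKM (SD, n = 4), which is the 74.7th percentile of the 21093 genes with a length and close to the median of 6.04 RPKM among the tested genes.

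Nr3c2, which binds both aldosterone and glucocorticoids, was low and uneven. The gene lies on chromosome 8 at 79423341 to 79768911 on the plus strand. In females 33 and 4 reads were counted and in males 28 and 3, or 1.38, 0.304, 0.514 and 0.178 RPKM. In each sex the first pool was the higher, and the second male pool stood at the level of 3 counts. Its 68 counts over all pools have an exact Poisson 95% interval of 52.8 to 86.2 counts. This and the other Poisson intervals, like the limits of 3 counts, cover counting error only. Per length, Nr3c1 was above Nr3c2 in all 4 pools, by 4.41-fold and 16.8-fold in females and by 13.2-fold and 25.0-fold in males. Nr3c1 accounted for 79.2% ± 10.6 (SD, n = 4) of the summed RPKM of the 5 receptors.

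Esr2 encodes estrogen receptor beta and lies on chromosome 12 at 77221406 to 77278246 on the minus strand. Its counts were 5 and 3 in females, with the second female pool at the level of 3 counts, and 7 and 18 in males. As normalized CPM these were 1.35 and 1.48 in females and 0.832 and 6.90 in males, with a 95% counting interval of 4.09 to 10.9 CPM in the second male pool. That pool alone stood high, since the upper bounds of the others were 3.16, 4.32 and 1.71 CPM and overlapped it only in the second female pool. The second male pool exceeded the first 8.29-fold (conditional exact 95% interval of the count ratio, 3.30 to 23.5), whereas the female pools differed 1.09-fold (0.170 to 5.61). The summed 33 counts correspond to 1.97 CPM (1.36 to 2.77).

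Esr1 encodes estrogen receptor alpha and lies on chromosome 10 at 5340927 to 5734948 on the minus strand. It had 3 and 1 counts in females and 15 and 5 in males, or 0.812, 0.492, 1.78 and 1.92 CPM. Both female pools were at or under 3 counts and both male pools above. The summed 24 counts give 1.43 CPM (Poisson 95% interval 0.918 to 2.13). In CPM, which takes no account of length, this interval overlaps that of Esr2. Per length of the annotated exons, the intervals of the summed counts did not overlap. They were 0.0671 to 0.156 RPKM for Esr1 and 0.403 to 0.821 RPKM for Esr2. Spread over the 13678 bases of its annotated exons, the mean level of Esr1 was 0.0915 ± 0.0516 RPKM (SD, n = 4).

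Pgr, on chromosome 9 at 8900419 to 8965425 on the plus strand, was at the limit of detection. A single read was counted over all pools, in the first male pool, and the other 3 pools had 0 counts. A count of 0 allows up to 0.812 and 1.48 CPM in the female pools and 1.15 CPM in the second male pool. Over all pools, with 16746999 reads on genes after TMM scaling, 1 count gives 0.0597 CPM with an upper bound of 0.333 CPM. Levels under that bound cannot be told from each other at this depth. For scale, 28.6% of all genes in the table had at most 1 count over the 4 pools and 23.5% had none.

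**Figure D1:**
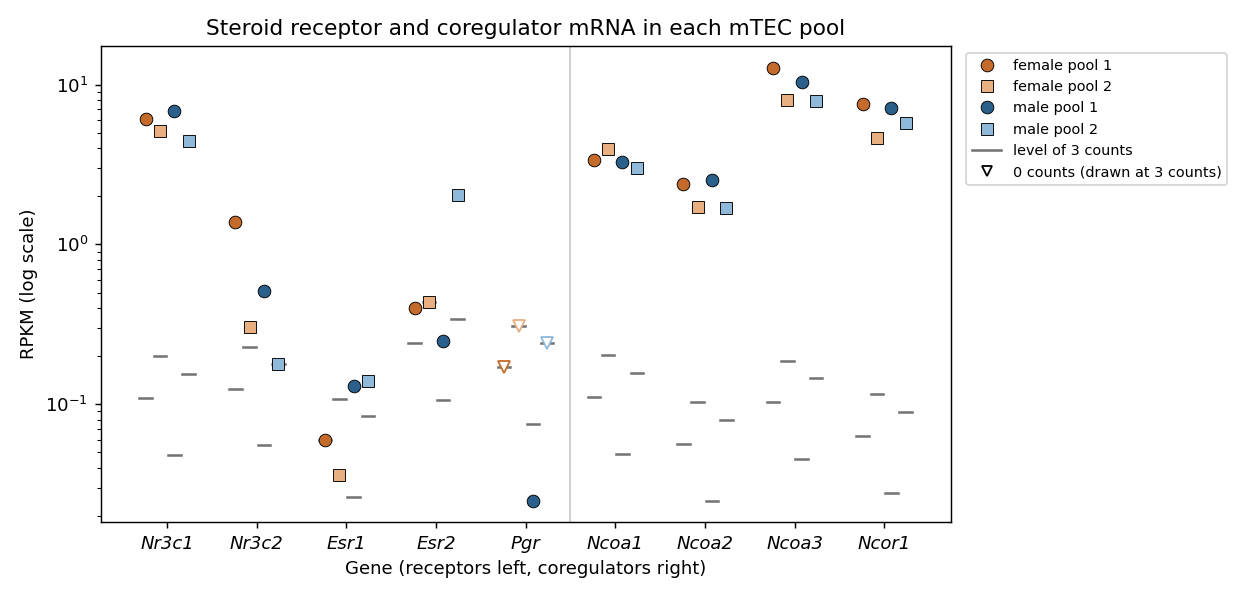
RPKM on a log scale (vertical axis) of the 5 receptors and 4 coregulators (horizontal axis) in each of the 4 pools, with a dash at the level of 3 counts in that pool and open triangles for 0 counts. Nr3c1 and the coregulators lie well above their dashes. Nr3c2 is at the dash in the second male pool and near it in the second female pool. Esr2 is at the dash in the second female pool. Both female pools of Esr1 are at or below the dash, and Pgr has 1 count in the first male pool.

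The coactivators NCOA1, NCOA2 and NCOA3 form the steroid receptor coactivator family, which binds the ligand-bound receptors and recruits acetyltransferases such as EP300 and CREBBP. Ncoa3 (chromosome 2, 165818136 to 165898742, plus strand) had 374 and 128 counts in females and 692 and 163 in males. Its levels were 12.8 and 7.98 RPKM in females and 10.4 and 7.91 RPKM in males. Both first pools were higher than both second pools, and the sexes overlapped.

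Ncoa2 (chromosome 1, 13129186 to 13364164, minus strand) had 127, 50, 305 and 63 counts in the same order. The levels were 2.40 and 1.72 RPKM in females and 2.53 and 1.68 RPKM in males, again with the first pools above the second ones and with overlapping sexes. Ncoa1 (chromosome 12, 4247363 to 4484060, minus strand) had 92, 59, 202 and 58 counts, or 3.40, 3.97, 3.28 and 3.03 RPKM. It varied least among the coregulators, at 3.42 ± 0.395 RPKM (SD, n = 4), and both male pools lay just under both female pools.

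Within the family the division was similar from pool to pool, and these shares do not depend on the normalization between pools. Ncoa3 made up 68.9% and 58.4% of the summed RPKM of the 3 coactivators in females and 64.2% and 62.7% in males. Ncoa1 took 22.9% ± 4.74 and Ncoa2 13.6% ± 1.37 (SD, n = 4). The lengths used bear on this, since Ncoa2 has 14344 bases of annotated exons but a longest transcript of 8171 bases. With the longest transcripts the mean shares were 58.8% for Ncoa3, 21.0% for Ncoa2 and 20.2% for Ncoa1, so Ncoa3 still had the highest mean share, while Ncoa2 was above Ncoa1 in 2 of 4 pools with overlapping ranges.

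Ncor1, which recruits the deacetylase HDAC3 to unliganded and antagonist-bound receptors, lies on chromosome 11 at 62129928 to 62272043 on the minus strand. It had 361 and 120 counts in females and 774 and 193 in males. The levels were 7.62 and 4.61 RPKM in females and 7.18 and 5.77 RPKM in males, so both male pools lay between the female ones. Per length, Ncor1 reached 0.594 and 0.577 of the Ncoa3 level in females and 0.689 and 0.729 in males. The ratio was thus higher in both male pools than in both female pools, a pattern seen after the values were computed, and 11.9% of all tested genes did the same in relation to Ncoa3. An exact permutation test of 2 against 2 pools cannot go below 0.333, two-sided, and no test of the ratio was run. Against the summed coactivators, Ncor1 stood at 0.411 ± 0.0533 (SD, n = 4).

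Ordered by mean RPKM, the 9 genes ran from Ncoa3 at 9.78 ± 2.33 over Ncor1 at 6.29 ± 1.37, Nr3c1, Ncoa1 and Ncoa2 at 2.08 ± 0.443 to Esr2 at 0.784 ± 0.846 and Nr3c2 at 0.594 ± 0.542, followed by Esr1 and Pgr (SD, n = 4 for each). Neighbours whose ranges over the pools overlapped were Ncor1 and Nr3c1, Ncoa2 and Esr2, and Esr2 and Nr3c2. The order of Esr2 and Nr3c2 rested on single pools: without the second male pool their means were 0.362 and 0.732 RPKM, and without the first female pool 0.911 and 0.332 RPKM. The ranges of Ncoa3 and Ncor1, of Nr3c1 and Ncoa1, of Ncoa1 and Ncoa2, of Nr3c2 and Esr1 and of Esr1 and Pgr did not overlap. With the longest transcript as the length, Ncor1 rose to 8.93 RPKM and overlapped Ncoa3, Ncoa2 at 3.65 and Ncoa1 at 3.42 RPKM overlapped with Ncoa2 higher in 2 of 4 pools, and Esr1 at 0.197 RPKM overlapped Nr3c2. Parts of some exons are shared with a gene on the opposite strand, which are 247 bases of Nr3c2 with Gm10649, 154 bases of Ncoa3 with Sulf2 and 87 bases of Ncor1 with Pigl. The library kit does not mark strand, so reads in these stretches cannot be told apart.

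No difference between males and females passed the test for any of the 6 receptors and coregulators that could be tested, and every 95% interval included 0. With the quasi-likelihood test of edgeR and p-values adjusted over all 10865 tested genes, 0 of the 6 were called, where the share of all genes called was 0%. At an unadjusted p under 0.05 it was 0 of 6, against 48 genes or 0.442% of all. DESeq2 and edgeR's exact test called 3 and 8 genes and none of the 6.

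Nr3c1 averaged 41.5 ± 5.13 CPM in females and 41.7 ± 12.4 CPM in males (SD, n = 2 for this and the following values by sex). The log2 fold change of males over females was 0.013 (SE 0.34, adjusted p = 1), and its 95% interval in linear terms ran from 0.573-fold to 1.78-fold. Ncoa2 was similar, with 29.5 ± 6.88 and 30.2 ± 8.58 CPM and an interval of 0.567-fold to 1.86-fold. Differences up to these bounds lie within the error of 2 pools per sex.

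Ncor1 had 78.4 ± 27.3 CPM in females and 83.0 ± 12.8 CPM in males, and its log2 fold change was 0.080 (SE 0.37, 0.571-fold to 1.96-fold). Ncoa3 had 82.1 ± 27.0 and 72.4 ± 14.0 CPM, with a log2 fold change of -0.18 (SE 0.37, 0.477-fold to 1.63-fold). Ncoa1 had 27.0 ± 2.95 and 23.1 ± 1.27 CPM, with a log2 fold change of -0.21 (SE 0.31, 0.516-fold to 1.44-fold). It was the only one of the 6 whose pools did not overlap between sexes, with both male pools below both female pools, as in 11.7% of all tested genes. The reverse, both male pools above, held for 9.47% of tested genes and for none of the 6.

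The largest estimate belonged to the low-count Nr3c2, at 5.45 ± 4.92 CPM in females and 2.24 ± 1.54 CPM in males. Its log2 fold change was -1.21 (SE 0.82, adjusted p = 1), with an interval of 0.112-fold to 1.66-fold. The value rested on the first female pool: without it the log2 fold change was 0.28, and the other pools left out in turn gave values down to -2.33. Of 10 thymocyte markers 7 were tested, and all 7 had male over female log2 fold changes above 0, with a median of 1.66. The thymocyte sums were 263 and 219 CPM in females and 851 and 311 CPM in males, highest in the first male pool. The 4 tested fibroblast markers had a median of 1.43. All 7 tested B cell markers had log2 fold changes below 0, with a median of -0.28. The part of these cell types in the receptor values was not tested.

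**Figure D2:**
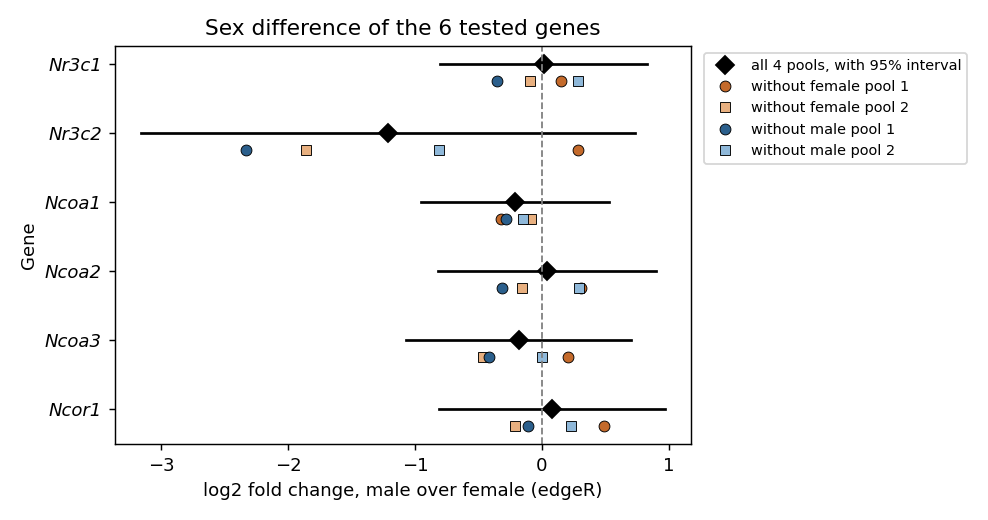
Log2 fold change of males over females (horizontal axis) with its 95% interval for the 6 genes that passed the filter, from the edgeR fit on 2 pools per sex, with circles and squares for the values without 1 pool. Every interval crosses 0, with Nr3c2 at -1.21 the widest and the other 5 genes between -0.21 and 0.080.

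The estrogen receptors did not pass the filter and were compared by their counts, with fits under other filters beside them. For Esr1, 20 counts in males stood against 4 in females, a ratio of 2.60 after adjustment for library size with a conditional exact 95% interval of 0.870 to 10.5. Leaving out each pool in turn gave ratios of 2.24 to 3.69. Both male pools were above both female pools, as in 9.47% of all tested genes, a set that leaves out Esr1. The share among genes below the filter was not computed. The exact interval of the ratio includes 1 even before any spread between pools is added. Without the filter, edgeR gave Esr1 a log2 fold change of 1.39 (SE 1.10, unadjusted p = 0.205, adjusted p = 1), and with a filter of 1 CPM in at least 2 pools 1.38 (SE 0.88, adjusted p = 1). For Esr2 the ratio was 1.62 (0.710 to 4.17), from 25 against 8 counts. It became 0.596 (0.184 to 1.88) without the second male pool and 4.94 (2.04 to 13.1) without the first male pool, so the direction rested on 1 library. The summed counts weigh the deep first male pool most, and the mean levels, which weigh pools equally, were 1.42 ± 0.0883 CPM in females and 3.86 ± 4.29 CPM in males. The edgeR fits gave Esr2 a log2 fold change of 1.26 both without the filter (SE 0.85, adjusted p = 1) and with the filter of 1 CPM (SE 1.08, adjusted p = 1). Without the first male pool it was 2.25 (SE 0.93, unadjusted p = 0.0175, adjusted p = 0.164). No fold is given for Pgr, which was under the limit in both sexes.

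The libraries of each sex also differed by pool number. Nr3c1, Nr3c2, Ncoa2, Ncoa3 and Ncor1, which is 5 of the 6 tested genes, were lower in pool 2 than in pool 1 in both sexes, and none was higher in both. Among all tested genes 35.0% were lower in pool 2 in both sexes and 31.3% were higher. These shares depended on the normalization. With library size only they were 47.0% and 18.3%, and 5 of the 6 genes were again lower. Pool numbers are labels, with no shared batch stated, so this is a description and was not tested. Nr3c2 moved most, to 22.1% of its pool 1 level in females and 34.5% in males. The female count ratio of 0.221 had an interval of 0.0568 to 0.620, while the male one of 0.345 reached from 0.0672 to 1.12. Ncor1 stood at 60.5% and 80.4% of the pool 1 level, Ncoa3 at 62.3% and 75.9%, Ncoa2 at 71.7% and 66.6% and Nr3c1 at 83.9% and 65.2%. Ncoa1 was the exception, with 117% in females and 92.5% in males.

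**Figure D3:**
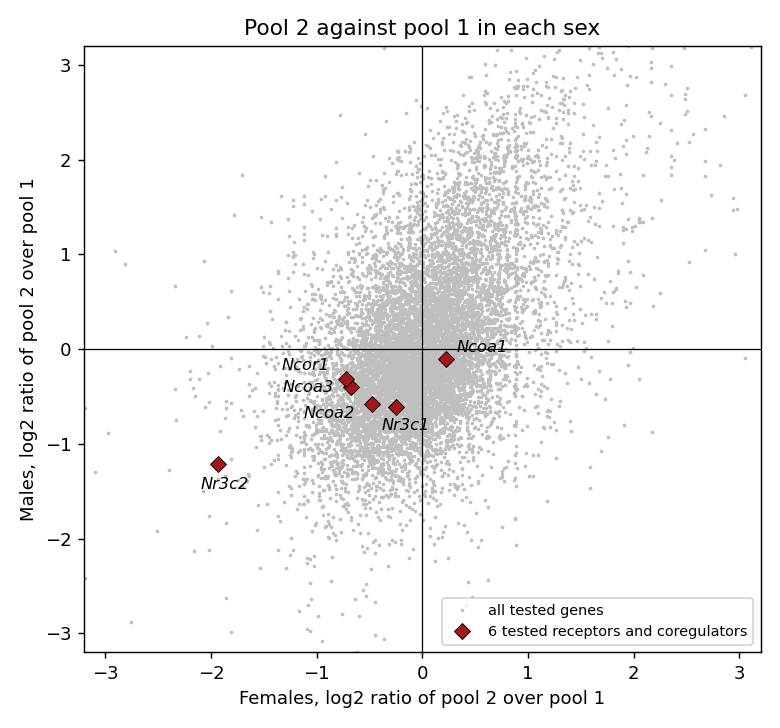
Log2 ratio of pool 2 over pool 1 (normalized CPM plus 0.5) in females (horizontal axis) and males (vertical axis) for all tested genes in grey, with 57 of them outside the axes, and for the 6 tested receptors and coregulators as diamonds. Of the 6, 5 lie in the lower left part of the plot, Nr3c2 farthest out at -1.93 and -1.22, and Ncoa1 lies at 0.22 and -0.11.

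All 6 of these genes have long transcripts. They fell into the longest of 5 equal groups of tested genes, with transcripts of 4802 bases or more, in which 44.6% of the genes were lower in pool 2 in both sexes and 20.6% higher. In the group with the shortest transcripts, up to 1738 bases, 14.6% were lower and 58.0% higher. B cell markers moved the same way as 5 of these 6 genes, with all 7 tested ones lower in pool 2 in both sexes. Of the 7 tested thymocyte markers, 5 were lower in pool 2 in both sexes and 2 higher. Of the 9 tested epithelial markers 8 were higher in pool 2. The part of transcript length and of the cell mixture in the pool differences was not tested.

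**Figure D4:**
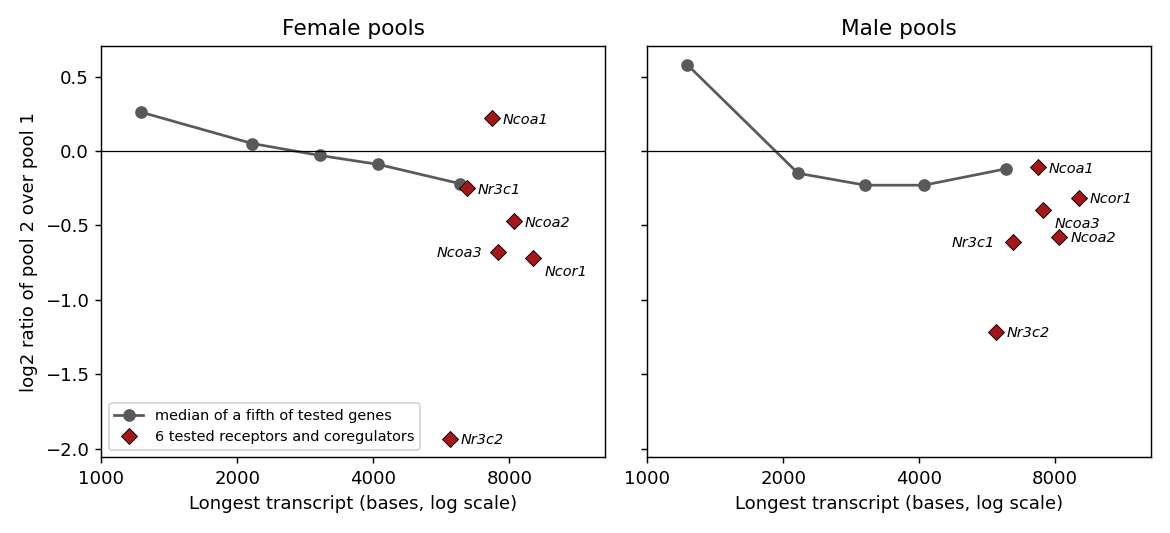
Log2 ratio of pool 2 over pool 1 (vertical axis) against the length of the longest transcript in bases (horizontal log axis) for females and males, with the medians of 5 equal groups of tested genes as grey points and the 6 tested receptors and coregulators as diamonds. In females the medians go from 0.26 in the shortest to -0.22 in the longest group, and in males from 0.58 to -0.12, and all 6 genes lie at the long end.

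The wider machinery of steroid signalling was read from 6 lists of 127 genes, of which 91 were tested. The quasi-likelihood test of edgeR called none of the 91 at an adjusted p of 0.05, and none had an unadjusted p under 0.05. The median log2 fold change of all tested genes was 0.027, and 53.2% were above 0.

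Other coregulators, 24 of 26 tested, had a median male over female log2 fold change of 0.0060, with 12 above 0 and a range from -0.60 to 0.54. The highest levels per length were those of the RNA helicase Ddx5 at 85.6 RPKM, of Gps2, a subunit of the NCOR corepressor complex, at 76.7 RPKM and of Ncoa4 at 55.0 RPKM. Their log2 fold changes were -0.06, -0.15 and -0.32. The 15 chaperones and cochaperones of the receptors, all tested, had a median of 0.05, with 10 above 0. Hspa8 stood at 956 RPKM, Hsp90ab1 at 694 RPKM and Hsp90aa1 at 320 RPKM. Their log2 fold changes of males over females were 0.10 (SE 0.48), 0.05 (SE 0.45) and 0.37 (SE 0.48), the last from 1773 CPM in the second male pool against 1065 to 1100 CPM in the others.

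Genes that glucocorticoids are known to induce had a median log2 fold change of -0.31 over the 14 of 16 tested, with 4 above 0. This median was -0.586 without the second male pool and -0.256 without the first. It was -0.212 without the first female pool and -0.221 without the second. Nfkbia, the inhibitor of NF-kB, was the most abundant at 1899 RPKM, with a log2 fold change of -0.47 (SE 0.53). The metallothionein Mt1 at 903 RPKM had the highest value of the list at 1.04 (SE 1.05), from 201 and 690 CPM in females and 163 and 1665 CPM in males, so that both second pools were above both first pools. The phosphatase Dusp1 at 353 RPKM had the lowest at -0.95 (SE 0.46). Its 1517 and 990 CPM in females lay above the 627 and 669 CPM in males, an order that 11.7% of all tested genes had. The difference did not pass the test (adjusted p = 1, edgeR). Several of these genes also respond to stress and inflammatory signals, as Nfkbia and Dusp1 do.

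Of 15 genes known to respond to estrogen or progesterone, 8 passed the filter, beside 46.5% of all genes in the table. Their median log2 fold change was 0.48, with 5 above 0, and it was 0.061 without the first male pool. The most abundant were the protease Ctsd at 169 RPKM, the transcription factor Xbp1 at 44.7 RPKM and Susd3 at 14.3 RPKM, and all 3 had log2 fold changes under 0, at -0.15, -0.04 and -0.29. Tff1, a classical estrogen target in epithelium, had no count in any pool.

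Of 25 enzymes and carriers of steroid synthesis and metabolism, 12 were tested and 6 had no count, beside 46.5% tested and 23.5% without a count among all genes of the table. The 6 were Cyp11b1 and Cyp11b2, which complete corticosterone and aldosterone synthesis, Cyp19a1, the aromatase that makes estrogens, Hsd17b3, Srd5a2 and Cyp21a1. Reads of Cyp21a1 could be split with a near-identical pseudogene, so its 0 is uncertain. The tested genes had a median log2 fold change of -0.05, with 6 above 0. The most abundant was the mitochondrial outer membrane protein Tspo at 828 RPKM with a log2 fold change of 0.44 (SE 0.58). Hsd17b10 at 37.0 RPKM and Hsd17b12 at 20.1 RPKM had 0.16 and 0.02.

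**Figure D5:**
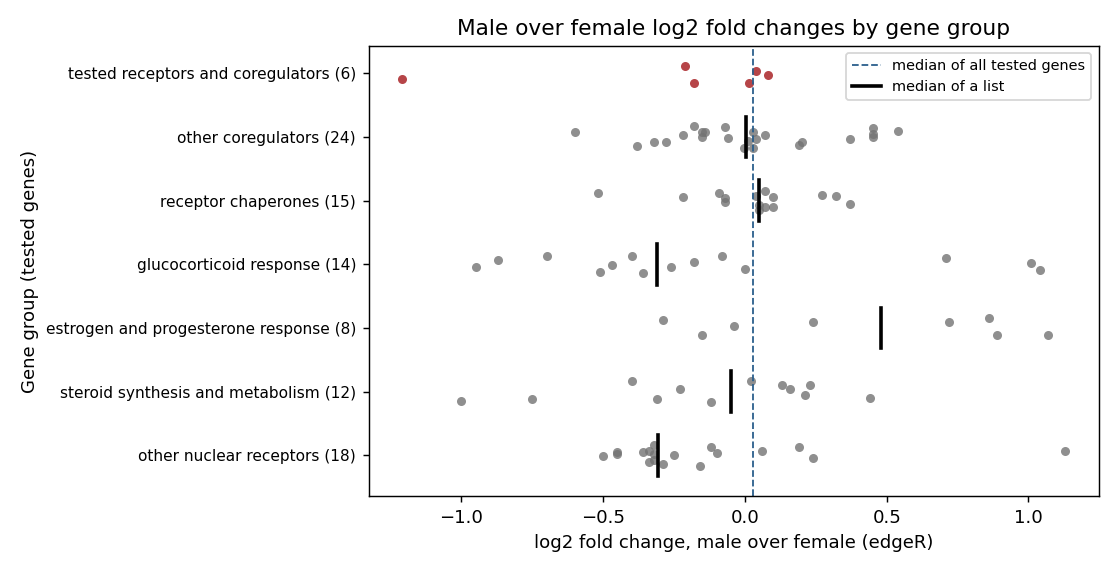
Log2 fold change of males over females (horizontal axis) of each tested gene in 7 groups (vertical axis), with the median of each list as a bar and the median of all tested genes, 0.027, as a dashed line. The medians of the 6 lists lie between -0.31 for glucocorticoid response and 0.48 for estrogen and progesterone response, and no gene shown passed an adjusted p of 0.05.

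Across the 4 pools, Nr3c1 followed Ncoa2 most closely among the 6 tested genes. The distance between their profiles of log2 CPM, each centred on its own mean, was 0.165, and Ncoa2, Ncoa3 and Ncor1 lay within 0.265 to 0.280 of each other. Nr3c2 was the farthest from the other 5, at 1.32 to 1.86. Among the 91 tested list genes, those nearest to Nr3c1 were the chaperone Hspa4 at 0.0806, Xbp1 at 0.118 and the prohibitin Phb2 at 0.180. Nearest to Ncor1 were Ddx5 at 0.184, the HSP90 cochaperone Ptges3 at 0.270 and Tbl1x, another subunit of the NCOR complex, at 0.276. These distances rest on 4 pools that share the difference by pool number and describe these pools only.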

How the data were processed

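RNA was measured in mTECs sorted by flow cytometry, in 2 female and 2 male pools of 10 mice. The deposited values are raw counts of reads per gene, which the authors derived from 50-base reads with Trimmomatic, TopHat2 (mm9) and HTSeq-count. Versions, gene annotation and strand setting are not given in the sources used here. Rows of unassigned reads, 66.9% to 70.2% of a pool, stayed out of library sizes and tests. All values were computed from these counts as deposited. Sexes were compared with edgeR 4.0.16 (R 4.3.3, quasi-likelihood test, TMM, filterByExpr with a minimum count of 10, prior count 0.125, two-sided, Benjamini-Hochberg adjustment at 0.05), after a test on simulated data. Each standard error was the log2 fold change over the root of its F. The libraries of a sex are separate pools, and no pair of pools agreed within sampling noise. The chi-square per degree of freedom was lowest at 11.5, between female pool 1 and male pool 1. It was 13.1 between the female pools and 106 between the male pools. RPKM used the summed exon length in GENCODE vM1 (NCBIM37), which matched 21093 symbols (90.3%). For a count of 0, 3 counts were taken as the limit. Ratios of pools used a pseudocount of 0.5 CPM.

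The genes and lists were chosen with earlier results of these data known. Beyond the 9 genes, the text names, for each of the 6 lists of steroid signalling and nuclear receptors, the 3 genes with the highest mean RPKM, those with an unadjusted p under 0.05 and those with no count, and the 3 list genes nearest to Nr3c1 and Ncor1. Alternatives were DESeq2 1.42.0, edgeR's exact test, other normalizations, filters and prior counts, a replicate block, each pool left out, and the longest transcript as length. Steroid receptors outside the 9 genes are not reported here.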

Additional observations from a re-analysis of the deposited data

How the results depend on the processing

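None of the 6 tested receptors and coregulators passed an adjusted p of 0.05 under any of the 12 alternatives run, and their adjusted p-values ranged from 0.192 (Nr3c2 without male pool 1) to 1. The count over all genes, 0 by edgeR's quasi-likelihood test with 48 at an unadjusted p under 0.05, was 3 with DESeq2, 8 with the exact test, 5 with library size only, 26 without the filter and 17 with the replicate block, and 0 to 646 with a pool left out (646 without male pool 1, 70 without male pool 2). The cause was not tested. The log2 fold change of Nr3c1, near 0, turned to -0.012 with library size only, -0.0053 with the replicate block and -0.00016 with upper-quartile normalization. Leaving out a pool gave -0.353 to 0.284 for Nr3c1, -2.33 to 0.280 for Nr3c2, -0.317 to 0.305 for Ncoa2, -0.464 to 0.203 for Ncoa3 and -0.216 to 0.492 for Ncor1, so these directions rested on single pools. Ncoa1 kept its direction, at -0.326 to -0.0860. Lone pools are then assumed to vary like the others. Pool numbers are shared labels only: the differences of pool 2 from pool 1 correlated across genes between sexes (r = 0.519), and with the replicate block Nr3c2 had an unadjusted p of 0.0322 and an adjusted p of 0.999. With the longest transcript as length, the mean levels moved to 0.197 RPKM for Esr1, 3.65 for Ncoa2 and 8.93 for Ncor1. With 2 pools per sex and a median standard error of 0.42 over tested genes, small differences cannot be resolved, and large ones can go uncalled. The quasi-likelihood test called none of the 10865 tested genes. The paper, also with edgeR, lists genes higher in males at a false discovery rate under 0.05, among them genes on the Y chromosome. A gene without a call here can thus still differ between the sexes. In addition, 3 of the 9 genes were below the filter. Of these, Esr1 and Esr2 could be fitted under other settings, with adjusted p-values of 0.164 to 1.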

Other observations

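Other nuclear receptors, 18 of 30 tested, had a median male over female log2 fold change of -0.30, with 4 above 0, and leaving out a pool gave medians of -0.442 to -0.155. None passed the test by edgeR's quasi-likelihood test, and 5 of the 18 were lower in both male pools than in both female pools, as were 11.7% of all tested genes. The orphan receptors Nr4a1, Nr4a2 and Nr4a3, which are induced early after many signals, were the most abundant at 377, 70.6 and 19.0 RPKM. Per length, Nr4a1 was therefore far above Nr3c1 at 5.61 RPKM. Their log2 fold changes were -0.36, -0.25 and -0.45. Esrrb, Ppara and Nr5a2, a regulator of steroid synthesis, had no count in any pool.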
